A study of Mus musculus with 12 samples.

Results

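The genes described here encode the proteasome, its activators and its assembly chaperones. They were taken as every annotated symbol that begins with Psma to Psmg followed by a digit, leaving out the immunoproteasome genes Psmb8, Psmb9 and Psmb10. The array annotation held 46 such symbols on 80 probes, out of 19031 annotated symbols. Of these, 38 had a probe that passed the detection filter and were tested among 10112 genes. The 38 comprised 26 structural subunits of the core and the regulatory particle, 6 assembly chaperones, 4 alternative caps and 2 symbols that match the pattern but name no subunit (Psmc3ip and Psme3ip1).

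The proteasome is the protease complex that destroys proteins tagged with ubiquitin. Its barrel-shaped core is built from outer rings of alpha subunits, which gate the entrance, and inner rings of beta subunits, some of which carry the proteolytic sites. A regulatory particle docks on the core: its ATPase subunits unfold and thread the substrate, and its non-ATPase subunits bind ubiquitin, remove it and hold the particle together. Dedicated chaperones assemble both parts and do not remain in the finished core, and alternative caps can replace the regulatory particle. In mammalian cells the transcription factor Nfe2l1 (also called Nrf1) raises proteasome genes together when proteasome activity is short, through antioxidant response elements in their promoters.

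The study grew prostate stem cells of C57Bl/6 mice in 2 ways and profiled total RNA on Illumina bead arrays. Adherent monolayer cultures came from mouse 1 and from mouse 2, and a spheroid culture came from mouse 1, with 3 replicate arrays each. Each culture also had an array of pooled replicate RNA, which entered no test. No treatment and no engineered allele was named for any group. The adherent average below is the mean of both adherent cultures. The labels leave unsaid whether replicates were separate cultures, so each p-value reflects no more than the spread among these arrays, which may be technical. All spheroid arrays stood for 1 culture of 1 mouse, so culture form cannot be told apart from that culture. The comparisons with mouse 1, with mouse 2 and with their average share the same spheroid arrays.

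The number of arrays limited the precision, and several features of the whole arrays moved with culture form. Between 43.1% and 49.1% of probes were detected on each array. The top decile of probes stood 3.09 to 3.24 times above background on the spheroid replicate arrays and 3.82 to 4.72 times above it on the adherent ones. Across the tested genes, replicate arrays of 1 culture correlated at 0.975 to 0.994 (Pearson's r), the adherent cultures with each other at 0.971 to 0.981, and spheroid with adherent arrays at 0.843 to 0.860. Within adherent mouse 2, replicate 1 stood apart from the other two arrays, which carry the same column name in the deposited table and are called a and b here. Of the 5 listed basal prostate markers all 5 were tested, with a summed linear signal of 31839 to 37318 on adherent and 47293 to 49414 on spheroid arrays. All 5 were detected on all 9 replicate arrays of these cells, which the series title calls basal. Between the spheroid culture and the adherent average, Krt15 rose by 2.73 on the log2 scale and Trp63 fell by 0.57, while Krt5, Krt14 and Itga6 did not pass the limma test described below (-0.06, 0.10 and 0.18). Of 7 fibroblast and smooth muscle markers 4 were tested (Acta2, Vim, Col1a2 and Des), with a summed signal of 22263 to 28806 on adherent and 1522 to 1584 on spheroid arrays. Against the adherent average Acta2 and Vim differed by -4.01 and -5.33 on the log2 scale, while Col1a2 and Des did not pass (-0.05 and -0.10). Col1a1, Pdgfra and Myh11 had no probe past the filter. Of 5 luminal markers Krt8 and Krt18 were tested, with a sum of 6061 to 7593 on adherent and 3055 to 3333 on spheroid arrays. Leukocyte (1 of 4 tested) and endothelial (2 of 3) markers summed to at most 35.2 and 70.8, and no seminal vesicle or neuroendocrine marker passed. The part of other cell types and of signal strength in the differences below was not tested. In bulk RNA, fewer cells of a type and less RNA per cell cannot be told apart.

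Most proteasome subunit genes were modestly lower in the spheroid culture, and the largest falls among subunits and chaperones were in the chaperones that build the core. Here a gene is said to have fallen or risen when its Benjamini-Hochberg adjusted p from limma, over all 10112 genes, was under 0.05. By that rule 27 of the 38 members fell against the adherent average (71.1%, beside 34.4% of all genes tested) and 3 rose (7.89%, beside 29.3%; 0 rose with median scaling). With median scaling, where 0 members rose, 1820 of all genes did. Without adherent mouse 2 replicate 1, 29 members fell and 4 rose, beside 3733 and 3222 of all genes. With the further demand of a 2-fold difference, limma called 3 members lower (7.89%, beside 13.4% of all genes), namely Psmc3ip, Psmg1 and Psmg2, and 0 higher (13.1% of all genes), also at an unadjusted p under 0.05. The members were therefore lower more often than genes at large, yet by less than 2-fold in all but those 3. On 22 of the 38 members all 3 spheroid arrays lay below all 6 adherent arrays (57.9%, beside 28.6% of all genes), and on 2 they lay above them (5.26%, beside 25.0%).

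The median log2 difference, spheroid minus the adherent average, was -0.37 over the 38 members and -0.38 over the 26 structural subunits, beside -0.06 over all genes tested. The interquartile range of the structural subunits was -0.50 to -0.28, a narrow band beside -0.57 to 0.47 for all genes. The 1443 genes with a mean log2 signal of at least 10, a reference chosen after the data were seen because most subunits are bright, had a median of -0.15. Of these bright genes 686 fell and 444 rose, larger shares than among all genes tested. On 609 of them all spheroid arrays lay below all adherent arrays, and on 400 above them. Array by array, the median log2 signal of the structural subunits was 11.72, 11.74 and 11.79 in adherent mouse 1, 11.82, 11.70 and 11.74 in adherent mouse 2, and 11.43, 11.42 and 11.45 in the spheroid culture. Every spheroid array was below every adherent array on that median. With the arrays scaled by their medians instead of by quantiles, the median was -0.35 over all genes and -0.85 over the members, and with cyclic loess it was 0.03 and -0.22, so that relative to all genes the members' median was -0.31, -0.50 and -0.25 under the 3 scalings. The number of structural subunits that fell was 22 of 26 with quantile scaling, 25 with median scaling and 15 with cyclic loess. Of all 10112 genes tested, 3479, 4886 and 2975 fell under the same 3 scalings.

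**Figure D1:**
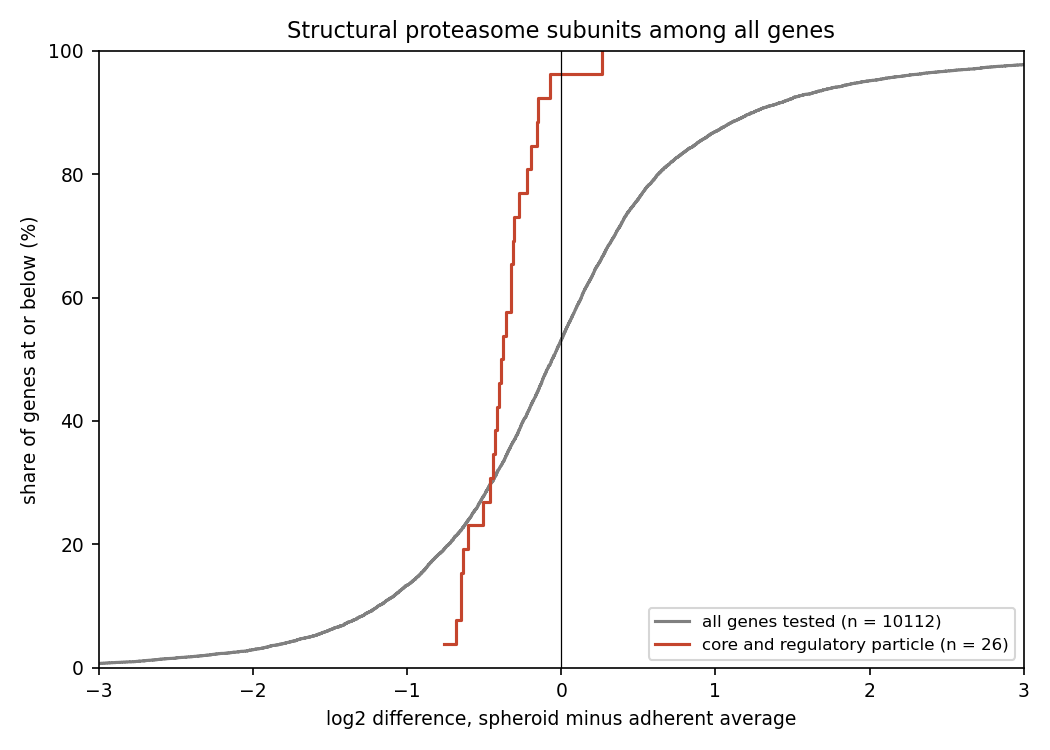
Cumulative share of genes (vertical axis, percent) at or below each log2 difference, spheroid minus the adherent average (horizontal axis, drawn from -3 to 3; some genes lie outside), for the 26 structural proteasome subunits and for all 10112 genes tested. The structural subunits climb steeply between -0.76 and 0.26 with a median of -0.38, while all genes spread over a much wider range with a median of -0.06.

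Because many subunits moved in the same direction, the promoters were read for the motifs of regulators known to act on proteasome genes. The sequences are from RefSeq's table for GRCm38.p6, which held a window for 38 of the 46 annotated symbols. The antioxidant response element core (TGACNNNGC, either strand) was in the 250 bases before the start of 4 of 26 structural subunits with a window (15.4%), beside 10.2% of 32851 windows of that length. The CCAAT box bound by NF-Y (either strand) was in 11 of the 26 (42.3%), beside 33.8% of all windows. With 50 further bases after the start the shares were 15.4% beside 12.4%, and 42.3% beside 37.4%. A gene counted as a match if any of its windows matched, whereas the reference counts single windows. Among the structural subunits Psma6 and Psmc2 had 2 windows each. The 26 with a window are not the same set as the 26 tested. No test of these shares was made, and a match is a description of letters, not of a binding site. The windows of the 3 tested structural subunits with the response element core are printed because they carry Nfe2l1's known motif, and those of Psmg1 and Psme1 because these had the largest fall and the largest rise among subunits, caps and chaperones with a window. Letters run 5′ to 3′ on the gene's strand, and capitals mark a match to TGACNNNGC on either strand.
Psmb5 (GRCm38.p6, chr14:54617996-54618245, minus strand): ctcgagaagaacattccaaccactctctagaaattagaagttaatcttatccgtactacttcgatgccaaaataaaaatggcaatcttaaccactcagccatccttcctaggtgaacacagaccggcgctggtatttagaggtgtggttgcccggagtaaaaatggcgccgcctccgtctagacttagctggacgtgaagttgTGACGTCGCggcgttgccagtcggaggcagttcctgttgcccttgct
Psmb6 (GRCm38.p6, chr11:70525107-70525356, plus strand): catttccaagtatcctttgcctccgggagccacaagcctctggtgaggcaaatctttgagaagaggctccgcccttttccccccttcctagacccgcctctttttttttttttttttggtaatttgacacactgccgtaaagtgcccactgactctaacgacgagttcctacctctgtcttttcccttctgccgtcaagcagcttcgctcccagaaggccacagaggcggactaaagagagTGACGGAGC
Psmd12 (GRCm38.p6, chr11:107479278-107479527, plus strand): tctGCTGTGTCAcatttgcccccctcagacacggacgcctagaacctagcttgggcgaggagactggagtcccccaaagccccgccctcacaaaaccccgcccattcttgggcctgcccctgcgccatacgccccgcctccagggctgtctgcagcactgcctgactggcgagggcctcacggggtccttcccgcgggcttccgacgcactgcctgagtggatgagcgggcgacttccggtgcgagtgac
Psmg1 (GRCm38.p6, chr16:95990961-95991210, minus strand): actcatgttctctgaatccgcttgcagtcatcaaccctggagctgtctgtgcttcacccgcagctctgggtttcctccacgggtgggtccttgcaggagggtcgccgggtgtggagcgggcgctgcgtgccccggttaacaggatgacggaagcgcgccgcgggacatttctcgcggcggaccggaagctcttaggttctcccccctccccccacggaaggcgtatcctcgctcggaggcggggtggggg
Psme1 (GRCm38.p6, chr14:55578244-55578493, plus strand): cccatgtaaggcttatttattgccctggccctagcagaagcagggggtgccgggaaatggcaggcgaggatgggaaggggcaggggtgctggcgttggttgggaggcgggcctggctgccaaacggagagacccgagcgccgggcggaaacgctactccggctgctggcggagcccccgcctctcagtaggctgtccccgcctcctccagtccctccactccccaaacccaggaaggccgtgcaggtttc
The element lay close to the start in Psmb5 and Psmb6 and at the far end of the window, on the opposite strand, in Psmd12. The Psmg1 and Psme1 windows held neither motif.

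All 4 alpha ring genes tested fell, with a median log2 difference of -0.60. Psma5 (Entrez gene 26442), a structural alpha subunit, read 12.97, 13.14 and 13.13 log2 units on the adherent mouse 1 arrays, 12.98, 12.81 and 12.77 on those of mouse 2, and 12.17, 12.15 and 12.30 on the spheroid arrays. All spheroid arrays were below all adherent arrays, by a log2 difference of -0.76 ± 0.07 (SE), a 1.69-fold lower level (limma adjusted p = 4.42e-07). Psma7 (26444), another alpha subunit, read 11.77, 11.78 and 11.95 in adherent mouse 1, 11.82, 11.73 and 11.77 in adherent mouse 2, and 11.07, 11.18 and 11.11 in the spheroid culture. Its groups did not overlap either, and the log2 difference was -0.69 ± 0.07 (SE; limma adjusted p = 8.36e-07). Psma2 (19166) had the smallest difference of the ring, with 13.26 to 13.32 in adherent mouse 1, 13.17 to 13.35 in adherent mouse 2 and 12.77 to 12.92 in the spheroid culture, a log2 difference of -0.42 ± 0.06 (SE; limma adjusted p = 4.38e-05). Psma4 lay between them at -0.51. The probes of Psma1, Psma3, Psma6 and the testis-specific Psma8 did not pass the filter. The probes for Psma1 and Psma6 were detected on 0 of the 9 replicate arrays, so they give no measure of these obligate subunits.

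All 7 beta ring genes tested fell, by less than the alpha ring genes on the median (-0.31), though no test of that gap was made. Psmb5 (19173), which carries the chymotrypsin-like active site, read 9.69, 9.61 and 9.62 in adherent mouse 1, 9.86, 9.47 and 9.48 in adherent mouse 2, and 9.08, 9.31 and 9.18 in the spheroid culture. The groups did not overlap, and the log2 difference was -0.43 ± 0.10 (SE), a 1.35-fold lower level (limma adjusted p = 0.00209). Psmb6 (19175), which carries the caspase-like active site, read 11.88, 11.91 and 12.05, then 11.90, 11.82 and 11.81, then 11.69, 11.82 and 11.70 in the same order of cultures. The spheroid and adherent mouse 2 arrays overlapped, and the log2 difference of -0.16 ± 0.07 (SE; limma adjusted p = 0.0494) no longer passed under cyclic loess (-0.0049), under 4 other settings, or without any of the adherent mouse 1 arrays, adherent mouse 2 replicate a or spheroid replicate 1 or 3 (-0.17 to -0.13). Psmb7, with the trypsin-like site, fell by 0.31 on the log2 scale, and the non-catalytic Psmb1, Psmb2, Psmb3 and Psmb4 had differences from -0.38 to -0.28. Under cyclic loess Psmb3 and Psmb7 also did not pass (-0.11 and -0.14). The probe of the thymus-specific Psmb11 did not pass the filter.

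Of the 5 ATPases tested 4 fell, with a median log2 difference of -0.39. Psmc3 (19182) read 10.96, 11.01 and 11.03 in adherent mouse 1, 10.86, 10.86 and 10.95 in adherent mouse 2, and 10.34, 10.31 and 10.27 in the spheroid culture. The groups were well apart, with a log2 difference of -0.64 ± 0.07 (SE), a 1.55-fold lower level (limma adjusted p = 1.46e-06). Psmc4 and Psmc2 had differences of -0.60 and -0.39. Psmc1 had -0.22 and did not pass under cyclic loess (-0.05) or without adherent mouse 1 replicate 1 or 3 or spheroid replicate 1 or 2 (-0.24 to -0.15). Psmc5 (19184) was the 1 ATPase that did not pass. It read 10.67, 10.67 and 10.84, then 10.51, 10.77 and 10.89, then 10.37, 10.60 and 10.61, with overlapping groups and a log2 difference of -0.20 ± 0.09 (SE; limma adjusted p = 0.0844), and it passed without adherent mouse 2 replicate 1 (-0.25). No probe of Psmc6 passed the filter.

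Of the 10 non-ATPase subunits tested 7 fell and 1 rose, with a median log2 difference of -0.36. Psmd2 (21762), a scaffold of the base, had the largest difference and also a wide spread. It read 6.85, 6.49 and 6.74 in adherent mouse 1, 6.50, 7.37 and 6.97 in adherent mouse 2, and 6.41, 6.41 and 5.68 in the spheroid culture. The groups were close without overlapping, and the log2 difference of -0.65 ± 0.21 (SE; limma adjusted p = 0.0161) became -0.41 and did not pass without spheroid replicate 3. Psmd2 did not pass against mouse 1 alone (-0.53, limma adjusted p = 0.0823) and passed against mouse 2 alone (-0.78, limma adjusted p = 0.0143). Psmd7, a partner of the deubiquitinating subunit in the lid, had a difference of -0.65 ± 0.09 (SE; limma adjusted p = 1.74e-05). Psmd14, the deubiquitinating enzyme itself, had -0.44, with overlapping groups, and did not pass under cyclic loess (-0.30). Nor did it pass without adherent mouse 1 replicate 2 or 3, adherent mouse 2 replicate a or spheroid replicate 1 or 2 (-0.46 to -0.31). The same held without the detection filter (-0.44) and with the mean of passing probes (-0.37). Against mouse 1 alone Psmd14 did not pass in the main fit (-0.39, limma adjusted p = 0.108). The lid subunits Psmd13 and Psmd12 and the base scaffold Psmd1 differed by -0.46, -0.33 and -0.40, and the ubiquitin receptor Psmd4 by -0.33. Under cyclic loess Psmd1 and Psmd12 did not pass (-0.23 and -0.14). Psmd12 also did not pass with the mean of passing probes (-0.19), its further probe giving -0.05.

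Psmd8 (57296), a lid subunit, was the only tested structural subunit that rose with quantile scaling. It read 11.63, 11.56 and 11.49 in adherent mouse 1, 11.57, 11.24 and 11.12 in adherent mouse 2, and 11.64, 11.64 and 11.81 in the spheroid culture. The lowest spheroid value was barely above the highest adherent one, and the log2 difference was 0.26 ± 0.09 (SE; limma adjusted p = 0.0247). Its direction was not stable: it was -0.24 with median scaling, where it fell, and it did not pass without the detection filter (0.26) or without adherent mouse 1 replicate 3, adherent mouse 2 replicate a or spheroid replicate 3 (0.21 to 0.25). Psmd6 and Psmd11 did not pass, at -0.15 and -0.07, and Psmd3 had no probe past the filter. The 2 Psmd3 probes were detected on 0 of 9 arrays.

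**Figure D2:**
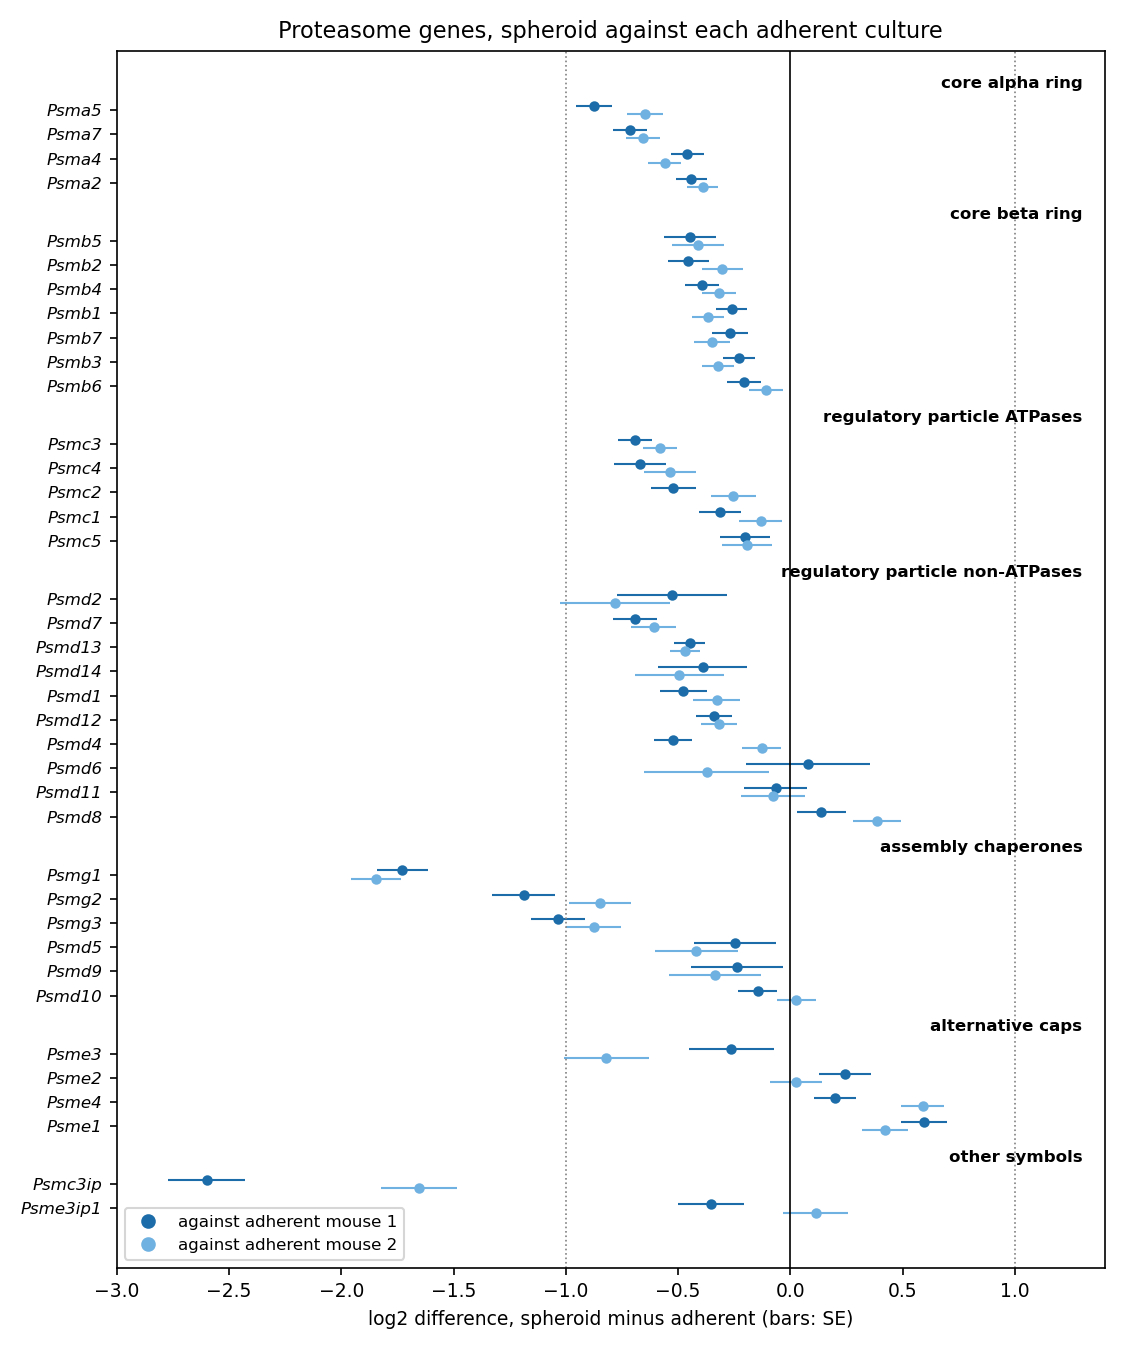
Log2 difference, spheroid minus adherent (horizontal axis), of the 38 tested members by class; dark points are against adherent mouse 1, light points against adherent mouse 2, bars are standard errors from limma and dotted lines mark a 2-fold difference. Both sets use the same spheroid arrays. Alpha ring, beta ring and ATPase genes all lie left of 0, Psmg1 to Psmg3 and Psmc3ip lie furthest left, and Psmd8, Psme1, Psme2 and Psme4 lie to the right of 0 with the quantile scaling drawn here; with median scaling no member rose.

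With quantile scaling, 3 of the 6 assembly chaperones tested fell and 3 did not pass. Psmg1 and Psmg2, which act as a pair to seed the alpha ring, and Psmg3, which works with Psmg4 on the same ring, all fell, while Psmd5, Psmd9 and Psmd10, chaperones of the regulatory particle's base, did not pass. With median scaling Psmd5, Psmd9 and Psmd10 fell as well, with differences of -0.80, -0.56 and -0.57. Psmg1 (56088) read 9.18, 9.11 and 9.12 in adherent mouse 1, 9.30, 9.32 and 9.14 in adherent mouse 2, and 7.34, 7.58 and 7.30 in the spheroid culture. The spheroid arrays were far below every adherent array, with a log2 difference of -1.79 ± 0.10 (SE), a 3.45-fold lower level (limma adjusted p = 2.49e-09). It was -2.23 with median scaling and -1.60 with cyclic loess.

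Psmg2 (107047) read 10.12, 10.12 and 10.04 in adherent mouse 1, 10.09, 9.64 and 9.53 in adherent mouse 2, and 8.70, 9.01 and 9.01 in the spheroid culture. All spheroid arrays were below all adherent arrays, with a log2 difference of -1.02 ± 0.12 (SE), a 2.02-fold lower level (limma adjusted p = 6.13e-06). That size is at the 2-fold line: it was 1.91-fold without adherent mouse 2 replicate 1, 1.88-fold without spheroid replicate 1, and 1.79 to 1.96-fold with cyclic loess, without background correction, with an offset of 50, with the mean of all passing probes or with the authors' values. Both further probes of Psmg2 gave -0.82 and -0.81. Psmg3 (66506) read 9.19, 9.01 and 9.31, then 9.15, 8.79 and 9.08, then 8.13, 8.14 and 8.12, with a log2 difference of -0.96 ± 0.11 (SE), a 1.94-fold lower level (limma adjusted p = 3.08e-06). It passed 2-fold against the average with median scaling (2.73-fold) and without adherent mouse 2 replicate a (2.01-fold). Psmd10 (53380), also known as gankyrin, read 9.97, 9.95 and 9.93, then 9.80, 9.86 and 9.68, then 9.77, 9.79 and 9.85. These ranges overlapped, with a log2 difference of -0.06 ± 0.07 (SE; limma adjusted p = 0.503). Psmd5 and Psmd9 differed by -0.33 and -0.29. Psmd5 passed without adherent mouse 2 replicate 1 (-0.43) and Psmd9 with the mean of passing probes (-0.48). The probe of Psmg4 was detected on 0 of the 9 replicate arrays.

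**Figure D3:**
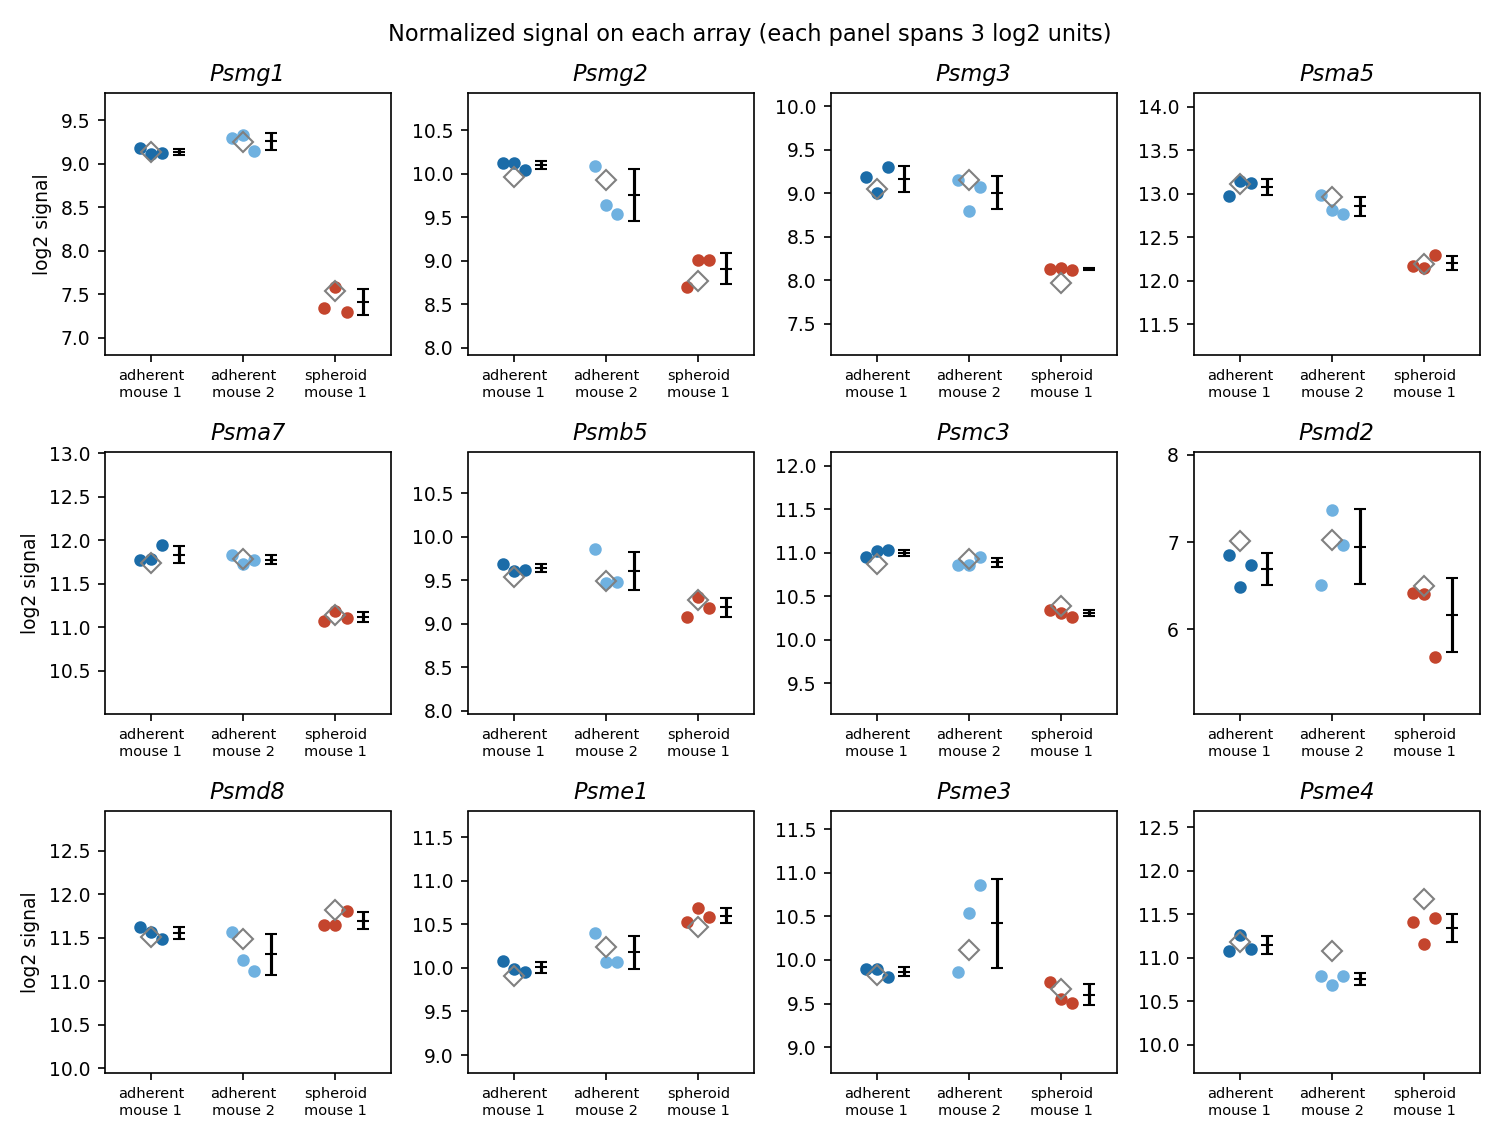
Normalized log2 signal (vertical axis, 3 log2 units in every panel) of 12 members on each replicate array (filled points) and each pool (open diamonds) of the 3 cultures; black marks are the mean and SD of the 3 replicate arrays. Psmg1 drops from between 9.11 and 9.32 on adherent arrays to between 7.30 and 7.58 on spheroid arrays, while Psme1 lies higher on the spheroid arrays (10.52 to 10.69) with the quantile scaling drawn here, but not with median scaling.

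The alternative caps did not move as a class. Psme1 (19186) and Psme2 form the interferon-inducible ring that opens the core in place of the regulatory particle, Psme3 forms the related nuclear ring, and Psme4 is a large single-chain activator. Psme1 read 10.08, 9.98 and 9.95 in adherent mouse 1, 10.40, 10.07 and 10.07 in adherent mouse 2, and 10.52, 10.69 and 10.58 in the spheroid culture. All spheroid arrays were above all adherent arrays with quantile scaling, and the log2 difference was 0.51 ± 0.09 (SE), a 1.42-fold higher level (limma adjusted p = 0.000222), but it was 0.01 with median scaling and did not pass there. Its partner Psme2 had a difference of 0.13 ± 0.10 (SE; limma adjusted p = 0.264) and had no settled direction: it passed as higher without adherent mouse 2 replicate 1 (0.18) and with cyclic loess (0.28), and as lower with median scaling (-0.36).

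Psme4 (103554), named after its values were seen, read 11.08, 11.27 and 11.10 in adherent mouse 1, 10.79, 10.68 and 10.80 in adherent mouse 2, and 11.42, 11.16 and 11.46 in the spheroid culture. The spheroid range overlapped that of adherent mouse 1 but not that of mouse 2, and the log2 difference from their average was 0.39 ± 0.08 (SE; limma adjusted p = 0.000858), but it did not pass with median scaling (-0.09) or with the mean of passing probes (0.28). Psme3 (19192) read 9.89, 9.90 and 9.80, then 9.86, 10.54 and 10.86, then 9.74, 9.55 and 9.51. Its fall of -0.54 ± 0.16 (SE; limma adjusted p = 0.0105) from the average was -0.26 ± 0.19 (adjusted p = 0.249) against mouse 1 and -0.82 ± 0.19 (adjusted p = 0.002) against mouse 2. It did not pass against the average without spheroid replicate 3 (-0.50) or with cyclic loess (-0.35). With median scaling no member of the 38 rose.

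Psmc3ip (19183) matches the symbol pattern but encodes a partner of the recombinases in meiotic recombination, not a subunit. It read 8.88, 8.84 and 9.20 in adherent mouse 1, 8.24, 7.94 and 7.90 in adherent mouse 2, and 6.11, 6.32 and 6.69 in the spheroid culture. The 3 cultures did not overlap, and the log2 difference of -2.13 ± 0.15 (SE), a 4.37-fold lower level, was the largest of the 38 (limma adjusted p = 2.85e-08). Psme3ip1 (102122), which encodes a binding partner of Psme3, read 9.96, 9.97 and 9.88, then 9.83, 9.44 and 9.15, then 9.42, 9.60 and 9.73, with a log2 difference of -0.12 ± 0.13 (SE; limma adjusted p = 0.422). Its spheroid arrays lay inside the range of adherent mouse 2.

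Against each adherent culture taken alone, most members again fell with quantile scaling, but not with cyclic loess. With cyclic loess 17 of the 38 fell and 4 rose against mouse 1, beside 2735 and 3065 of all genes. Against mouse 2, 15 fell and 3 rose with it, beside 2779 and 3144 of all genes. The values below are with quantile scaling unless another setting is named. The median log2 difference was -0.39 against mouse 1 (all genes -0.06) and -0.36 against mouse 2 (all genes -0.05). Against mouse 1, the culture from the same animal, 24 members fell (63.2%, beside 32.2% of all genes) and Psme1 rose (2.63%, beside 26.6%). Psmc3ip, Psmg1, Psmg2 and Psmg3 were called lower by 2-fold or more (10.5%, beside 14.1%), with folds of 6.06, 3.31, 2.28 and 2.05, and 0 were called higher at 2-fold (13.4% of all genes), also at an unadjusted p under 0.05. Psmg3 was under 2-fold without adherent mouse 1 replicate 3 (1.95) and with cyclic loess, no background correction, an offset of 50 or the authors' values (1.74 to 1.93). Without adherent mouse 2 replicate 1, 29 members fell and 3 rose against mouse 1 (3624 and 2996 of all genes), Psme2 and Psme4 being added. Against mouse 2, 24 members fell (63.2%, beside 31.9%) and Psmd8, Psme1 and Psme4 rose (7.89%, beside 28.0%). Psmc3ip and Psmg1 were called lower by 2-fold or more (5.26%, beside 13.5%), with folds of 3.15 and 3.59, and 0 were called higher at 2-fold (13.1% of all genes), also at an unadjusted p under 0.05. Without adherent mouse 2 replicate 1, Psmd2 and Psme3 were called lower as well, at 2.00-fold and 2.14-fold, and without background correction Psmc3ip was at 1.88-fold. Psmd4 had -0.52 against mouse 1 and -0.13 against mouse 2, where it did not pass.

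Few of these genes differed between the adherent cultures of the 2 mice. The median log2 difference, mouse 2 minus mouse 1, was -0.05 over the 38 members and -0.01 over all genes, or 0.14 and 0.17 with median scaling. In limma 3 members were lower in mouse 2 (7.89%, beside 6.90% of all genes) and 0 were higher (6.41% of all genes; 1 at an unadjusted p under 0.05), and at 2-fold 0 were called in either direction (1.39% of all genes higher and 1.02% lower), also at an unadjusted p under 0.05. The 3 were Psmc3ip (-0.94 ± 0.17), Psmd4 (-0.39 ± 0.09) and Psme4 (-0.39 ± 0.09), with SEs and limma adjusted p of 0.0032, 0.00918 and 0.0171. Psmd4 (19185), the ubiquitin receptor, was named after its values were seen, and read 12.51, 12.41 and 12.35 in adherent mouse 1, 12.17, 11.97 and 11.94 in adherent mouse 2, and 11.79, 11.95 and 11.96 in the spheroid culture. The mouse 1 arrays were above all others, and arrays a and b of mouse 2 were level with the spheroid arrays. Psme3 had a difference of 0.56 ± 0.19 (SE; limma adjusted p = 0.0694) and did not pass, although it was larger than those of Psmd4 and Psme4. The calls changed with the scaling: with median scaling 4 members (Psmb1, Psme1, Psme2 and Psme3) were higher in mouse 2, beside 1432 of all genes, and 1 (Psmc3ip) was lower, beside 302, while Psmd4 (-0.19) and Psme4 (-0.16) did not pass. Psme4 also did not pass with the mean of passing probes (-0.30). They changed with single arrays too: Psmd4 did not pass without adherent mouse 1 replicate 1 (-0.35), nor Psme4 without adherent mouse 1 replicate 2 (-0.33) or mouse 2 array a (-0.35). Without mouse 2 replicate 1, 10 members were lower, beside 1886 of all genes, and Psme3 was higher (0.84). Psmc3ip was 2.02-fold lower without adherent mouse 1 replicate 2 and 2.07-fold lower without mouse 2 replicate 1, and thus called in both.

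Other genes of the proteasome pathway moved in both directions. Of 43 listed symbols, 29 were named on the array and 26 were tested, with a median log2 difference of -0.04 from the adherent average. Of the 26, 5 rose and 8 fell, beside 29.3% and 34.4% of all genes, and 3 were called higher at 2-fold (13.1% of all genes): Zfand2a, Psmb9 and Nfe2l1. Zfand2a (100494), an arsenite-inducible protein that binds the proteasome, read 8.31, 8.53 and 8.31 in adherent mouse 1, 9.17, 8.61 and 8.54 in adherent mouse 2, and 11.62, 11.31 and 11.49 in the spheroid culture. It was far above both adherent cultures, with a log2 difference of 2.90 ± 0.13 (SE), a 7.44-fold higher level (limma adjusted p = 4.54e-10).

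Nfe2l1 (18023) read 9.50, 9.58 and 9.45 in adherent mouse 1, 9.73, 9.63 and 9.58 in adherent mouse 2, and 10.66, 10.70 and 10.63 in the spheroid culture. The groups were well apart, with a log2 difference of 1.09 ± 0.07 (SE), a 2.12-fold higher level (limma adjusted p = 2.48e-08). It was under 2-fold with median scaling (0.60) and without background correction (0.98), and it was 1.28 with cyclic loess. The transcript of the regulator was thus higher on the arrays where most subunit transcripts were lower. The related factor Nfe2l2 had a difference of 0.01 ± 0.12 (SE; limma adjusted p = 0.934).

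Psmb9 (16912), the inducible subunit that replaces Psmb6 in the immunoproteasome, read 5.27, 4.95 and 5.52 in adherent mouse 1, 4.34, 4.32 and 4.49 in adherent mouse 2, where it was detected on 0 of 3 arrays, and 6.25, 5.98 and 6.29 in the spheroid culture. It was 1.90-fold higher than in adherent mouse 1 (limma adjusted p = 0.000847). Against the mouse 2 arrays the log2 difference was 1.79 (limma adjusted p = 2.52e-06). Set against the lowest signal of detected probes on those arrays, Psmb9 was at least 3.18-fold higher, a bound for the main processing only. Against the average its log2 difference of 1.36 ± 0.16 (SE; limma adjusted p = 7.46e-06) was under 2-fold with an offset of 50 (0.76), without background correction (0.39), with the authors' values (0.46) and on the pools (0.81). Psmb8 (16913), which replaces Psmb5, read 5.11, 5.11 and 5.63, then 4.79, 5.18 and 5.09, then 6.09, 5.43 and 6.10. Its log2 difference was 0.72 ± 0.20 (SE; limma adjusted p = 0.00634), but its other probe gave -0.02. Psmb10 (19171), which replaces Psmb7, read 8.43 to 8.56 in adherent mouse 1, 8.60 to 9.35 in adherent mouse 2 and 8.34 to 8.70 in the spheroid culture, with overlapping groups and a log2 difference of -0.17 ± 0.15 (SE; limma adjusted p = 0.339).

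Pomp (66537), the chaperone that completes the beta rings, read 12.83, 12.81 and 12.90 in adherent mouse 1, 12.99, 12.70 and 12.75 in adherent mouse 2, and 12.41, 12.71 and 12.56 in the spheroid culture. It fell by 0.27 on the log2 scale (SE 0.08; limma adjusted p = 0.0101), and did not pass with cyclic loess (-0.08). The deubiquitinase Uchl5, which docks on the regulatory particle, fell by 0.73 and the shuttle receptor Rad23b by 0.78 on the log2 scale. Vcp, the segregase that hands substrates to the proteasome, fell by 0.49, while the base-associated deubiquitinase Usp14 had -0.33 and did not pass. These 4 were named after their values were seen. Ubxn1, on the same list, rose by 0.37 on the log2 scale with quantile scaling, while Sem1 had 0.14 and did not pass. Both of these were also named after their values were seen.

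**Figure D4:**
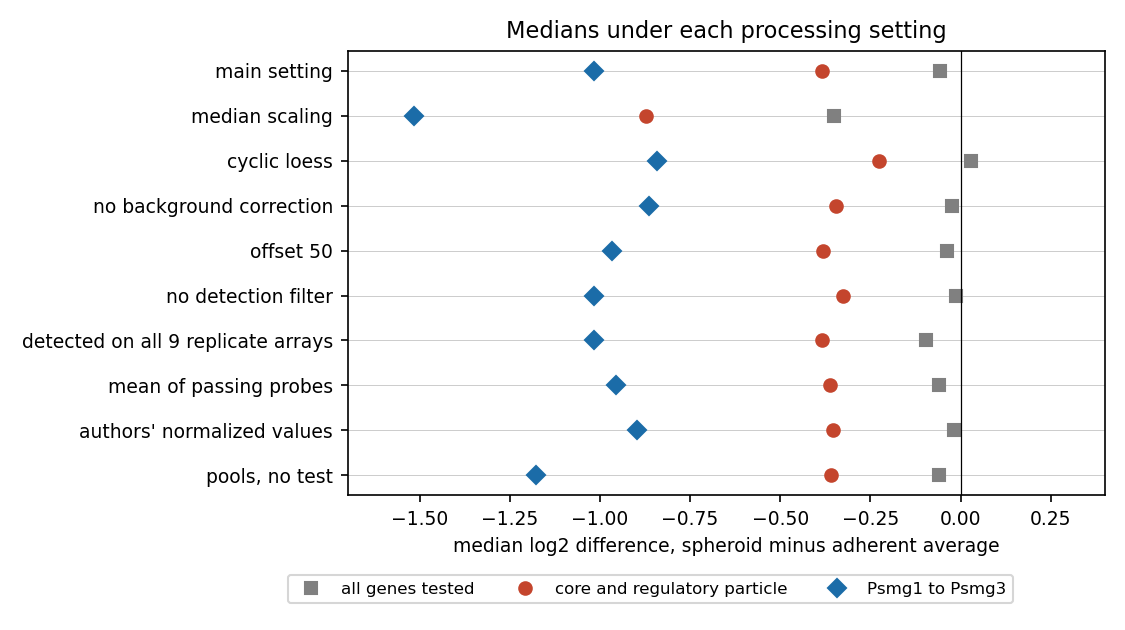
Median log2 difference, spheroid minus the adherent average (horizontal axis), of all genes tested (squares), the structural subunits (circles) and Psmg1 to Psmg3 (diamonds) under each processing setting (vertical axis); the setting without a detection filter tests more subunits. The structural median runs from -0.87 with median scaling to -0.23 with cyclic loess and lies left of the median of all genes in every setting drawn, and the median of Psmg1 to Psmg3 runs from -1.51 to -0.84.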

How the data were processed

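Total RNA of 12 arrays (9 replicate arrays and 3 pools) was measured. Per the file headers, the deposited non-normalized table gives each probe's mean intensity and a detection p-value, and the authors' normalized table, used as an alternative, holds linear intensity values made by a method not given in the sources used here. Genes were named from the platform annotation: 34773 of 45135 probes had 1 symbol, 18 several and 10344 none. In limma 3.58.1 (R 4.3.3), background was inferred from the detection p-values (normexp, offset 16), and values were put on the log2 scale and quantile normalized over all 12 arrays. A probe passed where some culture detected it on each of its 3 replicate arrays, at a detection limit of 0.05 (18950 probes), and the passing probe with the highest mean over the replicate arrays stood for its gene. All 38 probes used for the members were detected on all 9 replicate arrays. The 23 further passing probes of members had the sign of the probe used in the difference from the adherent average, though some lay near 0. Against mouse 1 alone, further probes of Psma5 and Psmd12 had the opposite sign to the probe used. Against mouse 2 alone, further probes of Psmb6 and Psmd10 did. The 10112 genes were fitted over the 9 replicate arrays by lmFit with 1 coefficient for each culture, then eBayes with an intensity trend and Benjamini-Hochberg adjustment over all genes. It was tested on simulated data. No batch is named in the labels, and 0 columns were left out as belonging to other samples. Alternatives were other scalings, background corrections, detection filters and probe rules, the authors' values, the pools, a replicate block and leaving out each array from the fit.

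Members, classes and gene lists were chosen with earlier results of these data known. Values are written out for the 6 members with the largest difference from the adherent average, the highest and lowest of each class, the 3 with the largest difference between adherent cultures, the pathway genes called at 2-fold, and Psmb8, Psmb9, Psmb10, Pomp and Nfe2l1. The promoter windows to print, the 250-base length and the bright reference genes were chosen after results were seen. Psmf1 has no probe under that symbol in the annotation.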

Additional observations from a re-analysis of the deposited data

Results flagged for a closer look

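For 3 members the spheroid culture differed by unequal amounts from the adherent cultures of mouse 1 and mouse 2, since those cultures themselves differed in the limma fit with quantile scaling. The log2 difference between the comparisons was -0.3943 for Psmd4, -0.3899 for Psme4 and -0.9446 for Psmc3ip. Psmd4 was 1.44-fold lower in the spheroid culture than in adherent mouse 1 and 1.09-fold lower than in mouse 2. Psme4 was 1.15-fold higher than in mouse 1 and 1.50-fold higher than in mouse 2. Psmc3ip was 6.06-fold lower than in mouse 1 and 3.15-fold lower than in mouse 2, and thus lower against both. With median scaling the adherent cultures no longer differed past the threshold in Psmd4 (-0.19) or Psme4 (-0.16), nor in Psme4 with the mean of passing probes (-0.30).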

How the results depend on the processing

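The 2-fold count of members lower in the spheroid culture was 3 against the adherent average, 4 against mouse 1 and 2 against mouse 2. Median scaling gave 11, 9 and 15. Under it the all-gene medians were -0.35, -0.27 and -0.44 in place of -0.06, -0.06 and -0.05. Of all 10112 genes, 2327, 2094 and 2656 were called lower there, in place of 1353, 1421 and 1366. Against mouse 2 the count was 1 without background correction (597 of all genes). On the pools, again against mouse 2, 4 members were lower by 2-fold alone, with no p-value (1384 of all genes). The cause of these changes was not tested. With each array left out of the fit in turn the 2-fold count was 2 to 4, 3 to 4 and 2 to 4. Between adherent cultures it was 0, or 0 to 1 with an array left out. The members' median log2 difference from the average was -0.852 with median scaling, -0.2208 with cyclic loess, -0.3288 without background correction and -0.3201 without the detection filter. Against mouse 1 these were -0.7462, -0.2216, -0.3134 and -0.326, and -0.3366 with the authors' values. Against mouse 2 they were -0.9109, -0.2173, -0.3186, -0.3205 and -0.2955. Between adherent cultures the median was 0.1437 with median scaling and -0.0125 on the pools. Leaving out arrays gave -0.3803 to -0.331 against the average, -0.4193 to -0.3477 against mouse 1, -0.3756 to -0.3276 against mouse 2 and -0.0943 to -0.0331 between adherent cultures. Median scaling changed the sign of Psmd8 (-0.2405) and Psme4 (-0.0921) against the average. Against mouse 2 it changed that of Psmd8 (-0.2272), Psmd10 (-0.6099), Psme1 (-0.1973), Psme3ip1 (-0.513) and Psme4 (-0.0142). Of these, only Psmd8 against the average passed under both scalings. Psmd10 and Psme3ip1 passed with median scaling only. Psme4 in both comparisons, and Psmd8 and Psme1 against mouse 2, passed with quantile scaling only. Psme2, which did not pass with quantile scaling, passed as lower with median scaling against the average (-0.3562) and mouse 2 (-0.5885). Over all genes, 1325 were called higher and 1353 lower; the counts were 881 and 2327 with median scaling, 1462 and 1061 with cyclic loess, 691 and 592 without background correction, and 785 and 693 with the authors' values. Between equally numbered arrays of mouse 1, deviations from the culture means correlated at 0.03, -0.04 and 0.07. These values cannot show whether replicates were handled as pairs. The fit with a replicate block on the 6 arrays of mouse 1 called 4 members with a median of -0.392. In it 29 members fell and 3 rose, beside 3608 and 2984 of all genes. The member counts were the same without the block on those arrays, a fit added after the data were seen. Weak signal limits Psmd6, Psmd9 and Psmd2, the dimmest members tested.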
